A study of Arabidopsis thaliana with 4 samples.

Results

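Serine carboxypeptidase-like (SCPL) genes and subtilase (SBT) genes code for proteases and related enzymes of the secretory pathway. Members here are the nuclear genes whose symbol begins with SCPL or SBT followed by a number and which have a probe set annotated to that gene alone. This gave 36 genes of 13356 named on the array, 29 SCPL and 7 SBT, each measured by 1 probe set. Expression came from 4 one-colour Affymetrix arrays of whole Arabidopsis thaliana seedlings, ecotype Columbia, hybridised with biotin-labelled cRNA. GSH-treated seedlings gave 2 arrays and control seedlings gave 2. Seedlings of both groups grew for 15 days after germination, and the treated ones then received GSH, reduced glutathione, for 72 hours. The labels state neither the dose nor whether controls were kept for the same further time, so age at harvest may differ with treatment. The study set out to describe how GSH changes the expression profile of the plant, and the comparison below gives this for both families.

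Both families are serine hydrolases with a catalytic triad, built on unrelated folds. Carboxypeptidases remove residues from the C-terminal end of peptides and proteins, and several plant SCPL proteins have become acyltransferases instead, which take acyl groups from glucose esters. SCPL8 (SNG1) and SCPL19 (SNG2), which make sinapoylmalate and sinapoylcholine in Arabidopsis, are the best known cases. SCPL24 (BRS1) was found as a suppressor of a brassinosteroid receptor mutant. None of these 3 had a probe set of its own in the annotation, so the acyltransferases best known in this plant are not analysed here. Subtilases are endoproteases made with a signal peptide and an inhibitory prodomain. Most act in the cell wall space, where they mature peptide hormones and cell wall enzymes.

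All values are log2 expression values made by the authors with RMA, and a difference is the GSH mean minus the control mean on that scale. A gene is said to rise or fall where limma gave a Benjamini-Hochberg adjusted p under 0.05 over all 22746 probe sets tested. Errors of differences are moderated standard errors (SE, 2 arrays per group). The array medians lay between 5.33 and 5.37, and replicates correlated across probe sets at 0.998 in each group, against 0.982 across the groups. The control probe sets did not move one way. The 27 Bacillus spike-in probe sets had a median difference of -0.26, ranging from -0.87 to 0.13, and 19 were wholly lower in GSH seedlings and 1 wholly higher. The 18 hybridization controls had a median of -0.16 with a lowest value of -0.45, and 11 were wholly lower and 0 wholly higher. Of all probe sets, 34% were wholly lower and 31.2% wholly higher. The 25S ribosomal RNA probe set differed by -2.97 and that for 5S by 0.11. The other 17 control probe sets, mostly for plant actin, GAPDH and ubiquitin, had a median of 0.14, and 14 of them were wholly higher in GSH seedlings. These controls stand beside every small difference below, and their part in it was not tested.

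Every SCPL gene that passed was lower after GSH. Treated seedlings had lower values for 9 of the 29 SCPL genes (31%), led by SCPL31, SCPL26 and SCPL34, and 0 rose by limma (1, SCPL23, had a higher value at an unadjusted p under 0.05, and SCPL28 passed as higher without GSH replicate 1, at 0.45). Over all probe sets 33.8% passed in either direction, 17.5% lower and 16.2% higher in GSH. Among the SBT genes 2 of 7 rose, SBT3.5 and SBT3.3, and SBT1.3 fell. The largest change in either family was the increase of SBT3.5, which was 2.81-fold higher in treated seedlings. The total of 12 of 36 genes past the threshold (10 lower, 2 higher) is close to the share over all probe sets. The median difference was -0.10 for the SCPL genes and 0.10 for the SBT genes, against -0.01 for all probe sets. With the probe sets of lowest signal left out the SCPL median was -0.21, over 19 genes. In bulk seedlings, fewer cells that express a gene and less RNA per cell cannot be told apart.

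**Figure D1:**
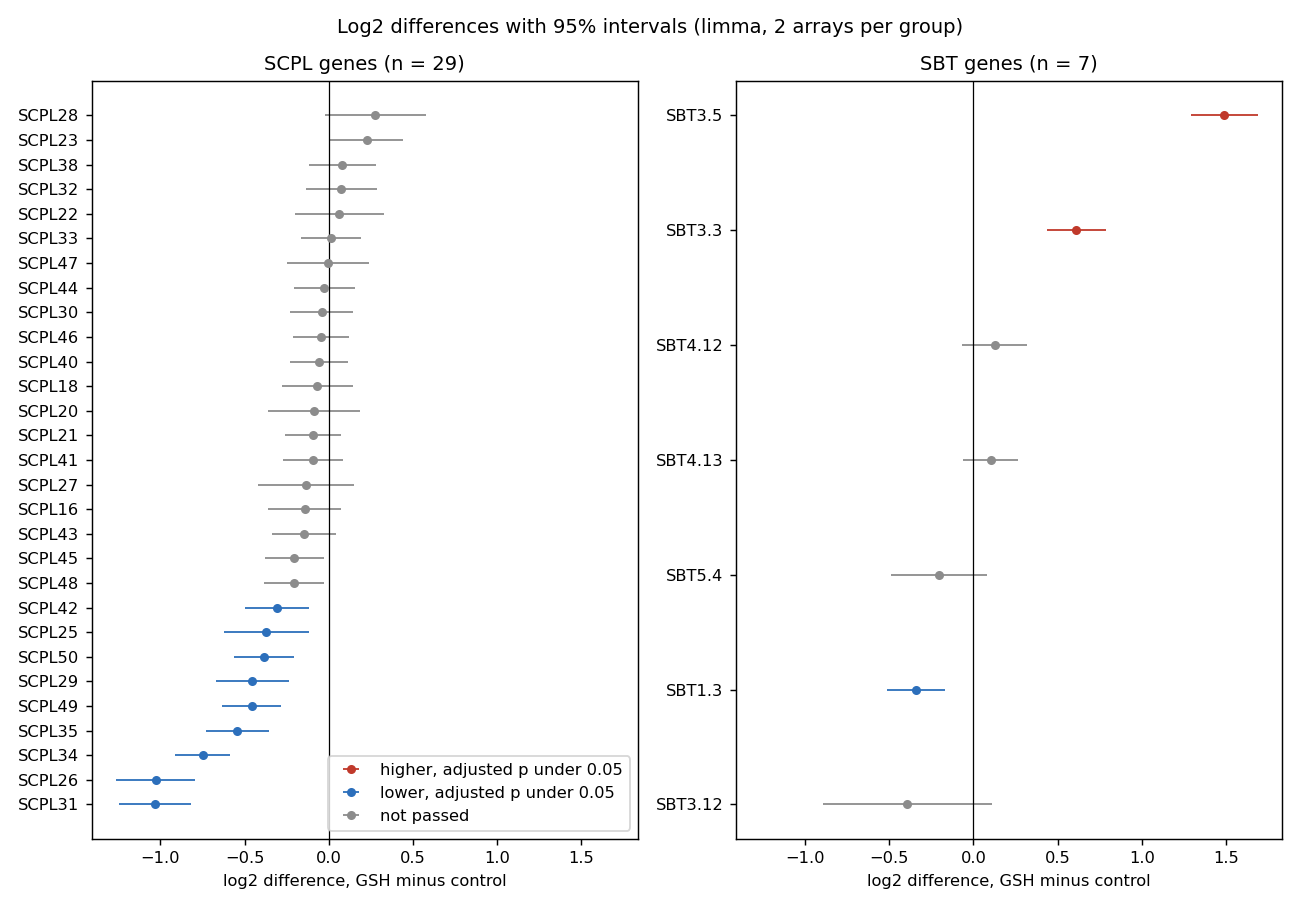
Log2 differences, GSH minus control, of the 29 SCPL genes (left) and the 7 SBT genes (right), with 95% intervals from limma (2 arrays per group). Blue points are the 10 genes that fell, red points the 2 that rose and grey points the 24 that did not pass, and no SCPL gene has a red point.

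SCPL31 (AT1G11080) had log2 values of 3.92 and 4.04 in GSH seedlings, against 5.10 and 4.93 in control seedlings. Its groups lay far apart compared with the gaps between replicates. It was 2.05-fold lower (difference -1.03 ± 0.09, limma adjusted p = 0.000286), and 1.54% of all probe sets had a larger decrease. The treated mean of 3.98 lies below 4.06, the limit of the lowest 25% of signals, a range in which no value was tested against background, and this decrease has an uncertain size.

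SCPL26 (AT2G35780) gave a much brighter signal, at 7.62 and 7.39 in GSH seedlings and 8.47 and 8.60 in control seedlings. It fell by nearly the same amount, 2.04-fold (-1.03 ± 0.10, limma adjusted p = 0.000416), and the size of its change does not rest on dim values. SCPL34 (AT5G23210) stood at 7.67 on both GSH arrays and at 8.40 and 8.43 on the control arrays. Its replicates were almost identical, and it was 1.68-fold lower (-0.75 ± 0.07, limma adjusted p = 0.000337). In the comparison without moderation of the spread, which rests on the 4 values of each gene alone, SCPL34 was the SCPL gene that still passed.

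SCPL49 (AT3G10410), which the gene table also names carboxypeptidase Y after the vacuolar enzyme of yeast, had 8.00 and 8.02 in GSH seedlings against 8.52 and 8.42 in control seedlings. The groups did not overlap and the difference was -0.46 ± 0.07 (limma adjusted p = 0.00367). With SCPL26, SCPL34 and SCPL48 it makes up the 4 SCPL genes in the highest 25% of signals, where 3 of 4 fell. SCPL48 (AT3G45010) had 8.09 and 8.20 in GSH seedlings and 8.33 and 8.38 in control seedlings. Its arrays also lay apart in the same direction, but its difference of -0.21 ± 0.07 did not pass (limma adjusted p = 0.0789). It did pass when the deposited values were quantile normalized again (adjusted p = 0.0472) or the prior followed the signal (adjusted p = 0.0387).

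Another 5 SCPL genes of middling signal fell by 1.24-fold to 1.46-fold, and SCPL35 moved most among them. SCPL35 (AT5G08260) had 4.48 and 4.35 in GSH seedlings against 4.93 and 4.99 in control seedlings, a difference of -0.54 ± 0.08 (limma adjusted p = 0.00228). For SCPL29 (AT4G30810) the values were 5.80 and 5.70 in GSH seedlings and 6.31 and 6.11 in control seedlings (-0.45 ± 0.09, limma adjusted p = 0.00909). SCPL50 (AT1G15000) followed, with 4.33 and 4.23 in GSH seedlings against 4.70 and 4.63 in control seedlings (-0.38 ± 0.07, limma adjusted p = 0.00806). In each of these 3 genes the groups lay apart by more than any gap between replicates.

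SCPL25 and SCPL42 passed narrowly, and their calls depend on single arrays and on the processing. SCPL25 (AT3G02110) had 4.59 and 4.89 in GSH seedlings and 5.11 on both control arrays, so that its treated replicates were 0.298 apart, more than for the other SCPL genes that fell. Its difference was -0.37 ± 0.11 (limma adjusted p = 0.0361). The adjusted p was 0.117 without GSH replicate 1, 0.0768 without control replicate 1, 0.0769 without control replicate 2 and 0.0596 with the replicate number as a block. It was also lost after quantile normalization of the deposited values (0.0518) and with the replicate numbers crossed in the block (0.0627). SCPL42 (AT5G42240) had 5.40 and 5.27 in GSH seedlings and 5.61 and 5.68 in control seedlings (-0.31 ± 0.08, limma adjusted p = 0.0234). Without GSH replicate 2 its adjusted p was 0.105, without control replicate 1 it was 0.0503, without control replicate 2 it was 0.103, and with the replicate block 0.0627. With a prior that followed the signal it was 0.0502. The other 7 SCPL genes that fell passed with each array left out in turn.

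**Figure D2:**
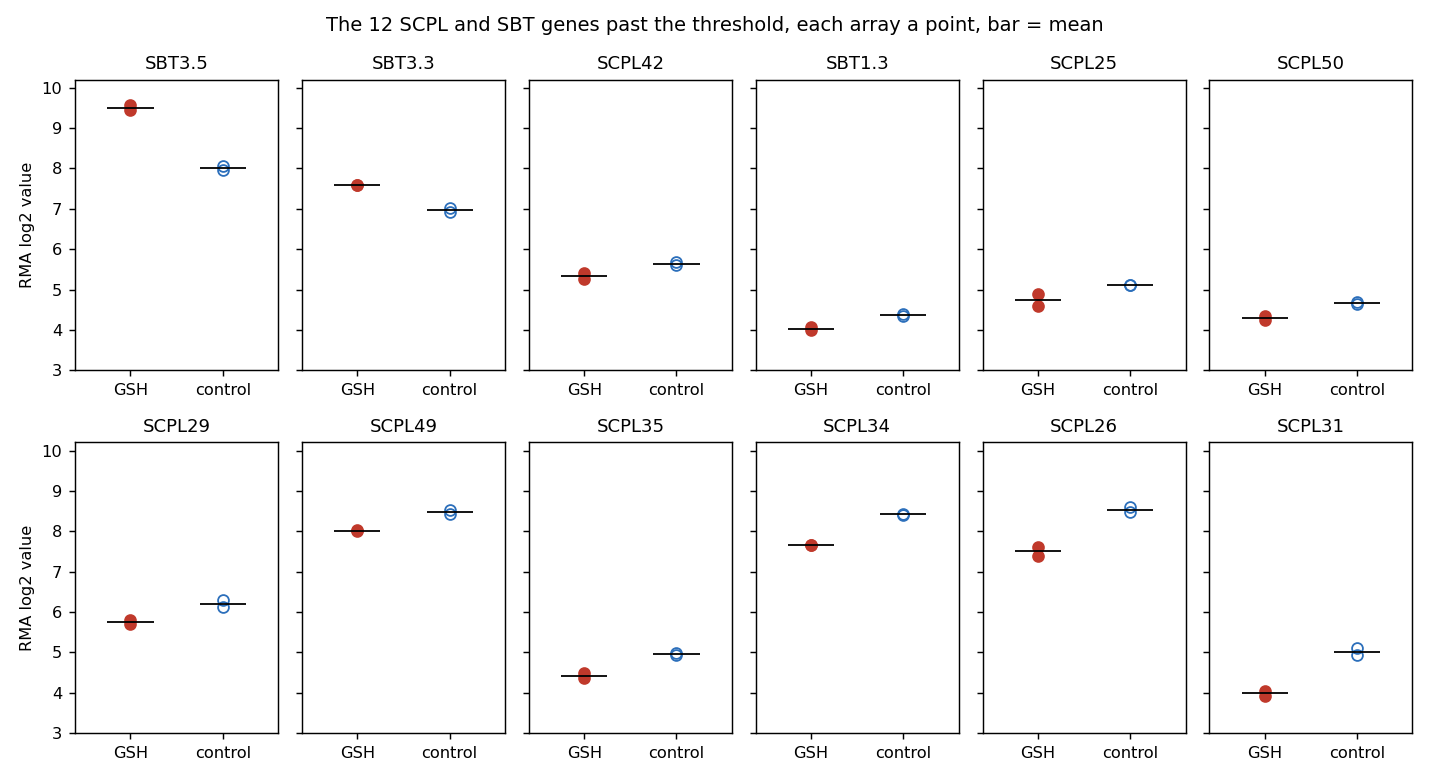
RMA log2 values on each array for the 12 SCPL and SBT genes past the threshold, with GSH arrays as filled red points, control arrays as open blue points and the group mean as a bar. SBT3.5 and SBT3.3 lie higher in GSH seedlings, the other 10 lie lower, and in none of the 12 does a GSH value overlap a control value.

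All 10 genes that fell, SBT1.3 included, had differences below the median of the Bacillus controls. Few smaller decreases pass the threshold, so this follows largely from the calls and says little more. Of the 10 genes, 6 lay below the lowest hybridization control (-0.45), all of them SCPL genes, and 2 (SCPL31 and SCPL26) below the lowest Bacillus control (-0.87). Of all probe sets, 9.36% had a larger decrease than SCPL29, the smallest of the 6, and 1.56% a larger one than SCPL26. SCPL31 and SCPL26 also passed a test against a change of 1.5-fold in place of 0 (limma treat, adjusted p = 0.0233 for SCPL31 and 0.0365 for SCPL26), as did SBT3.5 (adjusted p = 0.000667). That limit was chosen after seeing the data, and 1032 of all 22746 probe sets passed the same test. SCPL31 and SCPL26 are also the 2 SCPL genes at least 2-fold apart with no overlap between the groups, where 1.69% of all probe sets were that much lower. SBT3.5 is the 1 member that far apart in the other direction, beside 2.27% of all probe sets, and 3.96% were so in either direction.

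The other 20 SCPL genes did not pass, with differences between -0.21 and 0.28. SCPL20 (AT4G12910) had 5.02 and 5.07 in GSH seedlings, and its control values of 5.3 and 4.97 lay on either side of them (-0.09, 95% interval -0.36 to 0.18). SCPL33 (AT3G17180) had 4.70 and 4.74 in GSH seedlings against 4.76 and 4.65 in control seedlings (0.01, 95% interval -0.17 to 0.19). For these 2 genes the groups overlapped, and the intervals leave room for a decrease as large as that of SCPL42 in SCPL20 but not in SCPL33. Point estimates below 0 were also found for SCPL45 (-0.20), SCPL43 (-0.15), SCPL16 (-0.14), SCPL27 (-0.13), SCPL41 (-0.10), SCPL21 (-0.09), SCPL18 (-0.07), SCPL40 (-0.06), SCPL46 (-0.05), SCPL30 (-0.04), SCPL44 (-0.03) and SCPL47 (-0.01). Above 0 lay SCPL28 (0.28), SCPL23 (0.22), SCPL38 (0.08), SCPL32 (0.08) and SCPL22 (0.06). SCPL28 passed without GSH replicate 1 (0.45, limma adjusted p = 0.0233), because its GSH values of 3.91 and 4.27 differed. Counted by arrays alone, both GSH values were below both control values in 16 of the 29 SCPL genes and above them in 2, where 34% of all probe sets were wholly lower and 31.2% wholly higher.

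How often a gene passed went with its signal. Of the 10 SCPL genes in the lowest 25% of signals 0 passed, beside 3.71% of all probe sets in that band (2.2% lower and 1.51% higher), and 1 had an unadjusted p under 0.05. In the middle 50% of signals 6 of 15 fell (40%), and there 36.6% of all probe sets passed, 19.7% lower and 16.8% higher. In the highest 25% the SCPL count was 3 of 4, beside 58.2% of probe sets, 28.5% lower and 29.7% higher. None of the 19 SCPL genes in the upper bands rose. Among the SBT genes 0 of 3 passed in the lowest band, 2 of 3 in the middle band and the 1 gene, SBT3.5, in the highest band. In the lowest band a missing call says little about the gene, since 9 of the 13 members there had both group means under the 4.06 limit. These bands describe the signal of a probe set, which also depends on its probes, and not transcript levels between genes.

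**Figure D3:**
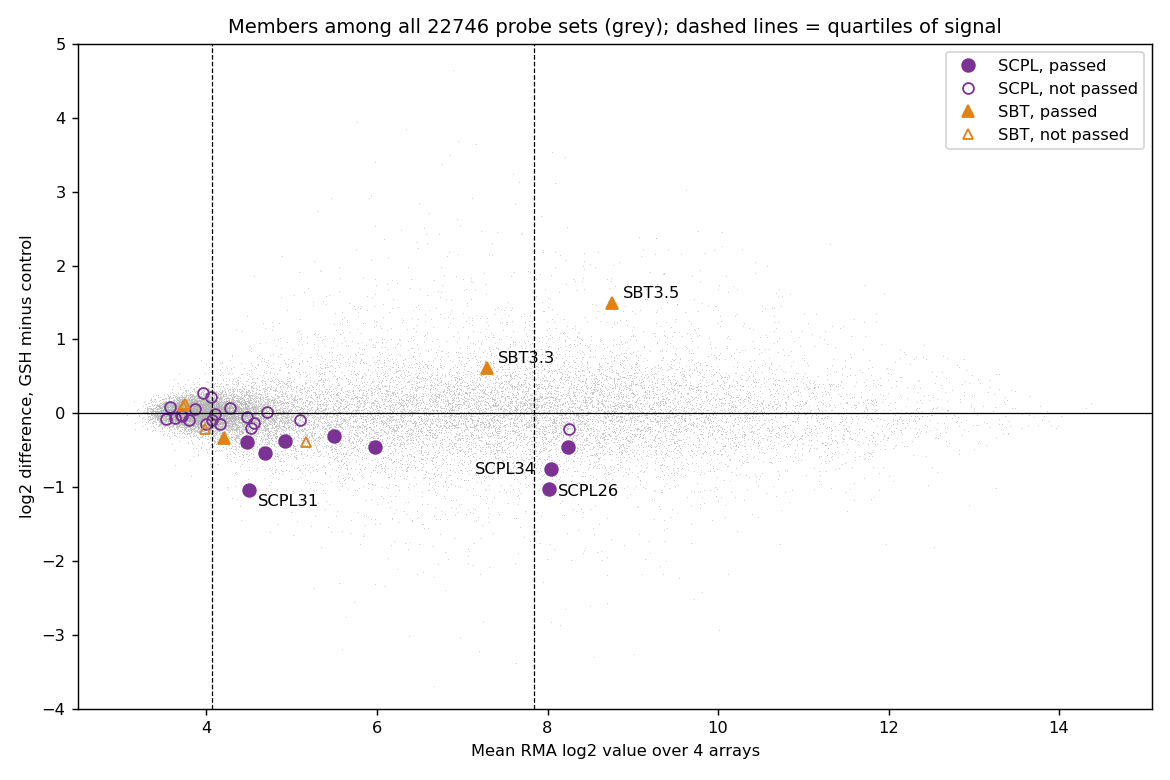
Log2 difference, GSH minus control, against the mean RMA log2 value over the 4 arrays, for all 22746 probe sets (grey), SCPL genes (circles) and SBT genes (triangles), filled where the gene passed. Dashed lines mark the quartiles of signal at 4.06 and 7.84, and 13 of the 36 members lie left of the first line, all of them open.

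**Figure D4:**
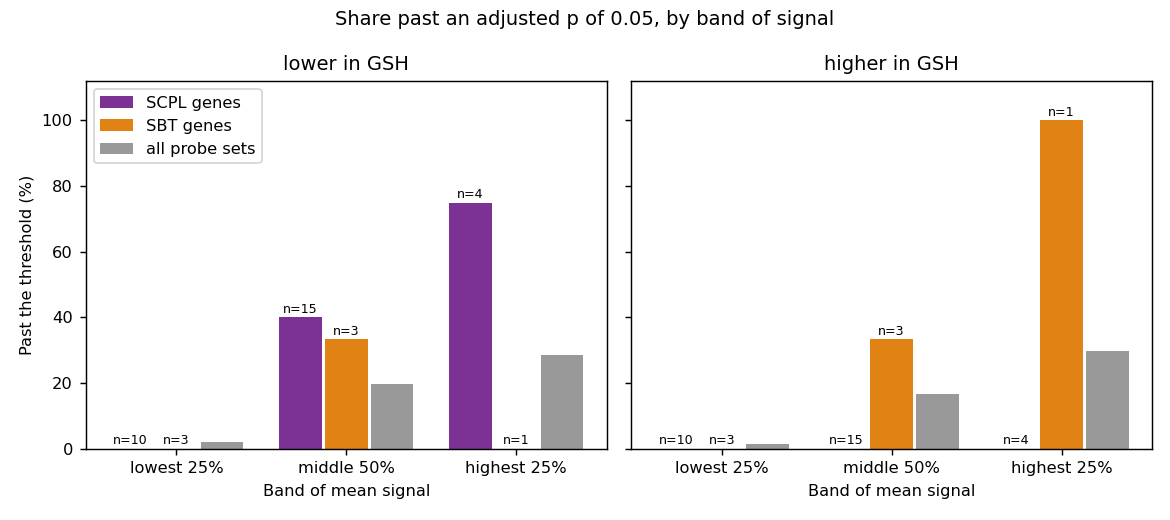
Share of genes past an adjusted p of 0.05, in percent, for SCPL genes, SBT genes and all probe sets in 3 bands of mean signal, lower in GSH on the left and higher on the right, with the number of genes above each bar. SCPL bars reach 40% and 75% on the left and 0% in every band on the right, and the SBT bar at 100% is the single gene SBT3.5.

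SBT3.5 and SBT3.3 were the members that rose. SBT3.5 (AT1G32940), a subtilase reported to process the pectin methylesterase PME17 in roots, had 9.57 and 9.44 in GSH seedlings, against 7.96 and 8.07 in control seedlings. The groups lay much further apart than their replicates (1.49 ± 0.08, limma adjusted p = 5.24e-05), and 0.844% of all probe sets had a larger increase. SBT3.3 (AT1G32960), known for its part in the priming of immune responses, had 7.60 and 7.59 in GSH seedlings and 6.93 and 7.03 in control seedlings. Its groups did not overlap either, and it was 1.53-fold higher (0.61 ± 0.07, limma adjusted p = 0.00107). Both kept their direction and passed with each array left out in turn, and neither passed without moderation of the spread.

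The 2 genes lie close together on chromosome 1 of the RefSeq assembly, with 1 protein-coding gene, AT1G32950, between them. That gene was looked up for its position after the values of its neighbours were seen. AT1G32950 had 5.86 and 5.80 in GSH seedlings and 4.82 and 4.73 in control seedlings, a 2.08-fold higher value (1.05 ± 0.07, limma adjusted p = 0.000123). The next gene past SBT3.3, AT1G32970, had 3.62 and 3.48 in GSH seedlings and 3.56 and 3.49 in control seedlings, so that its groups overlapped (0.03, 95% interval -0.16 to 0.22). Its signal was among the lowest 25%. Neighbouring genes of a family can be near copies whose probes share transcripts. No probe sequences were used here, so how far these 3 signals are independent was not tested.

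SBT1.3 (AT5G51750) had 3.99 and 4.07 in GSH seedlings and 4.38 and 4.36 in control seedlings and was the SBT gene that fell (-0.34 ± 0.07, limma adjusted p = 0.0111). Its treated mean of 4.03 lies under the 4.06 limit. The call was lost without GSH replicate 1 (adjusted p = 0.0552) and without control replicate 1 (adjusted p = 0.0513).

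The other 4 SBT genes did not pass, and 2 of them turn on a single array. SBT3.12 (AT4G21326) had 4.61 and 5.33 in GSH seedlings, the widest gap between replicates of any member, against 5.35 and 5.37 in control seedlings (-0.39 ± 0.21, 95% interval -0.89 to 0.11). Without GSH replicate 2 its difference was -0.75 (limma adjusted p = 0.00314). SBT5.4 (AT5G59810), a subtilase whose overexpression alters the shoot meristem, had 3.70 and 4.06 in GSH seedlings against 4.09 and 4.08 in control seedlings (-0.21 ± 0.12). Without GSH replicate 2 it passed too, at -0.38 (limma adjusted p = 0.0249), and with that array left out 5 SBT genes passed in place of 3.

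SBT4.12 and SBT4.13 belong with SBT5.2 to the subtilases that can mature the abscission peptide IDA. SBT4.12 (AT5G59090) had 3.75 and 3.87 in GSH seedlings and 3.64 and 3.73 in control seedlings (0.13, 95% interval -0.07 to 0.32). For SBT4.13 (AT5G59120) the difference was 0.10 (95% interval -0.06 to 0.27). Both lay in the lowest 25% of signals. All 7 SBT genes had GSH values wholly above (4 genes) or wholly below (3 genes) their control values, where 65.2% of all probe sets did so.

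Gene pairs that lie side by side did not share 1 pattern. SCPL26 and SCPL28 are direct neighbours. SCPL26 fell, and SCPL28 had 3.91 and 4.27 in GSH seedlings against 3.75 and 3.89 in control seedlings (0.28, 95% interval -0.03 to 0.58). SCPL42 and SCPL41 are separated by 2 genes, and beside the decrease of SCPL42 the value for SCPL41 was -0.10 (95% interval -0.27 to 0.08). SCPL22 (0.06) and SCPL23 (0.22), which adjoin each other, both did not pass. The differences between partners were not tested, and SCPL28, SCPL41, SCPL22 and SCPL23 all lie in the lowest 25% of signals.

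Of 5 SBT relatives that carry another symbol 2 fell and 3 did not pass, where 17.5% of all probe sets were lower and 16.2% higher. One of those that fell, ATSBT5.2, was added after seeing the data. ARA12, the subtilase SBT1.7 known for its part in the release of seed coat mucilage, had 6.80 and 6.95 in GSH seedlings and 7.76 and 7.71 in control seedlings. It fell more than any SBT gene above (-0.86 ± 0.08, limma adjusted p = 0.000375). ATSBT5.2, whose product also cleaves the stomatal peptide EPF2, had 4.05 and 4.07 in GSH seedlings and 4.37 and 4.35 in control seedlings and fell as well (-0.30 ± 0.07, limma adjusted p = 0.0143). S1P, the Golgi protease that releases membrane-bound transcription factors, stood at -0.16 and TPP2, a large cytosolic tripeptidyl peptidase, at -0.01. SBTI1.1, which cleaves a precursor of the peptide hormone phytosulfokine, stood at 0.21, and none of these 3 passed. With the 5 relatives added, the set would count 2 higher and 3 lower of 12, and its median would be -0.085 in place of 0.10. These 12 do not stand for the whole subtilase family. Genes named by locus alone were not added, among them the measured neighbours AT1G32950 (1.05), AT1G32970 (0.03) and AT5G59100 (0.18). The direction of the SBT median therefore depends on which symbols are counted.

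Of the 49 nuclear genes with an SCPL symbol in RefSeq, 20 had no probe set of their own. Of these, 17 had none and 3 were on probe sets shared with another gene. The probe set shared by SCPL36 and SCPL37 stood at -0.04 (limma adjusted p = 0.707) and that shared by SCPL39 and AT3G56540 at 0.01 (adjusted p = 0.963). SCPL1 to SCPL7 and SCPL9 to SCPL15 are all among the 17, so the measured genes cover the family unevenly.

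Around the acyltransferase step, 5 genes of sinapate ester metabolism were measured, of which 1 fell and 4 did not pass (median -0.05), a share near the 17.5% of all probe sets that were lower. UGT84A3, which attaches glucose to hydroxycinnamic acids and so makes substrates for SCPL acyltransferases, had 7.96 and 7.95 in GSH seedlings and 8.28 and 8.36 in control seedlings (-0.37 ± 0.07, limma adjusted p = 0.00791). HCT, which forms hydroxycinnamoyl esters of shikimate, stood at -0.18. The sinapaldehyde dehydrogenase gene ALDH2C4 and the glucosyltransferase gene UGT84A1 both stood at -0.05.

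Among substrates and partners of subtilases 6 genes were measured, of which 1 fell and 5 did not pass (median -0.10), again near the 17.5% of all probe sets. STOMAGEN, a secreted peptide that raises the number of stomata, had 3.83 and 3.63 in GSH seedlings and 4.65 and 4.83 in control seedlings. The groups lay well apart (-1.01 ± 0.10, limma adjusted p = 0.0005), with a treated mean below the 4.06 limit. GSO1, the receptor for peptides that guide the Casparian strip and cuticle, stood at -0.21 (adjusted p = 0.0872). BZIP17, a membrane-bound factor released by S1P, stood at -0.12 and CLV3, the stem cell peptide of the shoot, at 0.17, neither of which passed.

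Of 9 other proteases and protease inhibitors 2 rose, 2 fell and 5 did not pass (median 0.05), where 16.2% of all probe sets were higher and 17.5% lower. Of the 4 vacuolar processing enzymes, which mature vacuolar proteins, 1 rose, 1 fell and 2 did not pass, BETA-VPE (0.07) and DELTA-VPE (0.14). ALPHA-VPE had 6.36 and 6.25 in GSH seedlings against 5.28 and 5.41 in control seedlings and rose (0.96 ± 0.08, limma adjusted p = 0.000274), while GAMMA-VPE had 11.54 and 11.49 in GSH seedlings against 12.06 and 12.10 in control seedlings and fell (-0.57 ± 0.07, adjusted p = 0.00115). NANA, an aspartic protease of chloroplasts, fell by 0.61 ± 0.07 (limma adjusted p = 0.000806). UND, an aspartic protease known from anthers, rose by 0.23 ± 0.07 (limma adjusted p = 0.0456) from values among the lowest 25% of signals.

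Few tissue markers were measured, and those for xylem, epidermis, and flower and seed carry no value here. The 4 leaf genes measured of 10 named, led by the antenna gene LHCB4.2 (-0.42 ± 0.07, limma adjusted p = 0.00389) and RCA (-0.24), had mean log2 values of 9.51 on both GSH arrays and 9.79 and 9.77 on the control arrays, with 2 lower and 2 not past the threshold. SWEET11 for phloem (-0.39) fell, and FAMA for guard cells stood at -0.20. The root markers PYK10, EXPA7 and EXPA18 averaged 4.04 and 4.21 in GSH seedlings and 4.26 and 4.21 in control seedlings, and none passed. LHCB4.2, RCA and SWEET11, the 1 phloem gene measured, all lie in the highest 25% of signals, where 28.5% of all probe sets were lower. The decreases of these genes stand beside those of the SCPL genes, and their part in them was not tested.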

How the data were processed

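The authors deposited 1 log2 value for each probe set and array. Per the submitters' processing notes, Affymetrix Expression Console and RMA made them, with no version named. RMA includes quantile normalization, which hides a change shared by most transcripts. Detection calls were not used, and 2 arrays per group limit the precision. Of 22810 probe sets, 64 controls stayed out of the tests. Groups come from the sample titles, and free text on embryos, which the tissue labels contradict, was ignored. The titles call the arrays of each group biological replicates. No label states separate cultures, and the p-values therefore cover only the spread between these arrays.

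The platform annotation named 13513 probe sets by 1 gene (503 had several, 8730 none). Gene identifiers matched RefSeq (TAIR10.1) for 13436 of them, and the others kept the old symbol. Lower-case SCPL symbols are written in capitals. The files name no genome build, so no coordinates are given.

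The fit used limma 3.58.1 in R 4.3.3 (lmFit, eBayes, group as the factor, 2 residual and 4.55 prior degrees of freedom, two-sided). Its code was tried on simulated data, with the spread drawn from the fitted prior and far fewer changed probe sets than passed here. That trial checks the code and not the calls made here. Members past the threshold, and the 3 brightest others of each family, are given by array. Other lists name up to 4 genes with the smallest p. Members and lists were chosen with earlier results of these data known.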

Additional observations from a re-analysis of the deposited data

How the results depend on the processing

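Counts past the threshold were 9 SCPL genes, 3 SBT genes and 7680 probe sets. They stayed within 1.5 times of this with each array centred on its median, quantile normalization, a trend or robust prior, and the lowest 25% of probe sets left out, although SCPL25 lost its call after quantile normalization (adjusted p = 0.0518) and SCPL42 with a trend (adjusted p = 0.0502). Without moderation of the spread 1 SCPL gene, 0 SBT genes and 1425 probe sets passed (limma's linear fit alone, where 6 SCPL and 3 SBT genes had an unadjusted p under 0.05). Tested against 1.5-fold, chosen after seeing the data, 2, 1 and 1032 passed, and at least 2-fold apart without overlap 2, 1 and 900. Leaving out each array in turn gave 7 to 9 SCPL genes, 2 to 5 SBT genes and 6186 to 6248 probe sets, with SCPL medians from -0.17 to -0.09 and SBT medians from 0.06 to 0.12. Without the lowest 25% of probe sets the SCPL median was -0.21, because fewer dim genes are in it.

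With relatives of other symbols added the SBT median was -0.012 over 11 genes with 4 past the threshold, and, with ATSBT5.2 also added after seeing the data, -0.085 over 12 genes with 5 past it. Each gene had 1 probe set and both symbol sources gave the same members, so the other choices of probe set or symbol could not change a value, and no SCPL gene of another name was added.

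The labels share replicate numbers but state no pairing. With the replicate block 7 SCPL genes, 3 SBT genes and 6235 probe sets passed. Deviations of same-numbered arrays correlated at -0.10, and with the numbers crossed, added after seeing the data, 8, 3 and 6898 passed. No gene that passed changed sign under any alternative. The test against 1.5-fold and the 2-fold rule, under each of which 2 SCPL genes and 1 SBT gene passed, are outside the counts that follow. Of 419 values of members under alternatives, 390 kept their side of the threshold, 24 lost it and 5 gained it. Most of the values that kept their side belong to genes that did not pass. All 24 losses fell on the 12 genes that passed, and of these SCPL34 alone kept its call under every alternative counted.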
